A study of Mus musculus with 4 samples.

Results

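The genes described here are 10 hormone receptors and lineage transcription factors of mammary luminal cells: Esr1, Pgr, Prlr, Kit, Stat5a, Gata3, Foxa1, Elf3, Ehf and Elf5. They were chosen by name, and all 10 were found among the 23361 genes of the deposited table. RNA was measured in 4 libraries of cultured mouse mammary tumour cells of strain C3HeB/FeJ, from a tumour of the Chaos3 mouse, which carries a mutant allele of the helicase subunit Mcm4. Per the labels, the libraries labelled High came from AB-C1 and AB-C2, a pair of clones transduced with a lentiviral vector to over-express Arid1a, with 1 library per clone. The libraries labelled Low came from 23116 MT, the parental tumour line with low Arid1a, as duplicates UT-R1 and UT-R2. Both groups share the strain and the Chaos3 tumour background. Each add-back line is a single clone, so that an effect of the vector and a difference between clones cannot be told apart. The table does not say which clone either High library came from, and the library numbers 1 and 2 are names only.

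The libraries held 16523077 and 24307251 fragments (High) and 13889858 and 28110812 fragments (Low). Arid1a, a DNA-binding subunit of a chromatin remodelling complex, was at 49.8 and 58.3 CPM (counts scaled to library size) in the libraries labelled High, against 82.2 and 94.2 CPM in those labelled Low. It thus did not lie higher under the High label (log2 fold change -0.71 ± 0.23, SE, edgeR adjusted p = 0.165), and whether the transcript of the vector was counted as Arid1a, or the labels of the libraries were exchanged, is not known. Every direction below is therefore that of a library labelled High, not of measured Arid1a. The 2 libraries labelled High lay far apart, with a biological coefficient of variation of 42.4% between them, against 17.3% between the duplicates labelled Low. In bulk RNA, fewer cells of a type and less RNA per cell cannot be told apart.

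Luminal cells of the mammary gland fall into hormone-sensing cells, marked by the oestrogen receptor (Esr1), the progesterone receptor (Pgr), the prolactin receptor (Prlr) and the pioneer factor Foxa1, and alveolar or progenitor cells, marked by the receptor tyrosine kinase Kit and the ETS factor Elf5. Oestrogen induces Pgr in these cells, and prolactin signals through the kinase JAK2 to the transcription factor STAT5A. Gata3 is required to keep luminal identity, and Elf3 and Ehf are ETS factors of many epithelia.

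Against the libraries labelled Low, those labelled High held less Kit RNA and more Stat5a and Elf3 RNA, but none of these differences passed the test over all genes. Of the 10 genes, 8 passed the filter on low counts and were tested, and 0 were called higher and 0 lower (edgeR's quasi-likelihood test, Benjamini-Hochberg adjusted p under 0.05). Over all 12987 genes tested, 1.14% were called higher and 1.33% lower, 2.47% in all. At an unadjusted p under 0.05, 3 of the 8 passed, against 18.1% of all genes. DESeq2 called 2 higher (Elf3 and Stat5a) and 1 lower (Kit), against 4.7% and 4.04% of all genes (8.75% in all). Limma-voom called 0 of the 8 in either direction, against 0.554% higher and 1.12% lower (1.67% in all). The median log2 fold change of the 8 was 1.03, beside 0.03 for all genes tested, and 6 of the 8 values lay above 0. That median was -0.0058 without High library 1 and 1.04 without High library 2. Both libraries labelled High lay above both labelled Low for 3 of the 8 genes (25.9% of all genes) and below for 1 (25.1%), so that 4 of the 8 did not overlap, against 51% of all genes. No exact test of single values was used, since 2 libraries against 2 cannot go below p = 0.333.

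**Figure D1:**
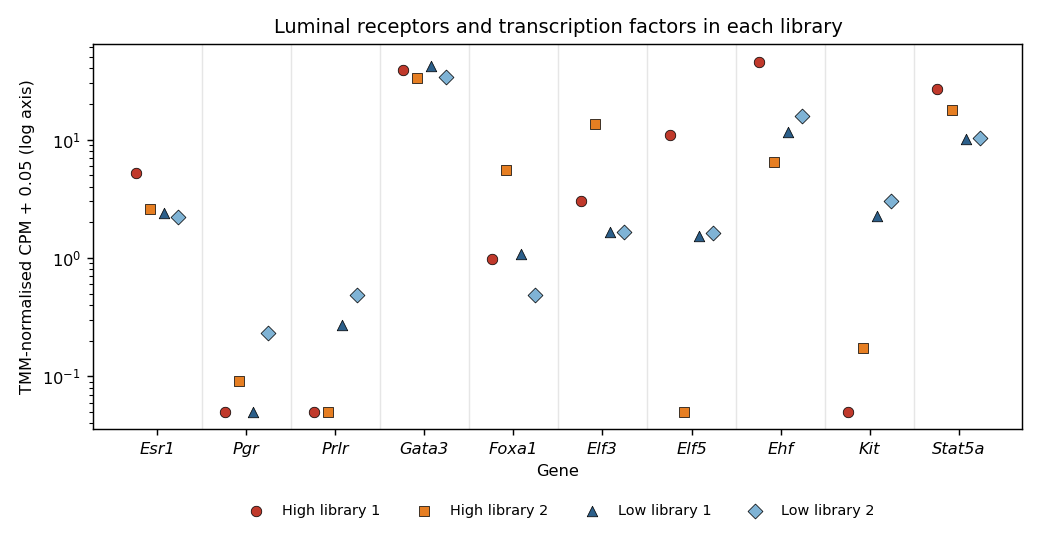
TMM-normalised CPM (plus 0.05, log axis) of the 10 genes in each of the 4 libraries, with the libraries labelled High at the left of each gene. Gata3 lies between 33.2 and 42.1 CPM in every library, whereas Elf5 runs from 0 to 10.9 CPM within the libraries labelled High.

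Among the receptors, Esr1 (ENSMUSG00000019768.16, chromosome 10, 4611593 to 5005614, plus strand, mm10) was detected in every library at a low level. It had 5.20 and 2.52 CPM in High libraries 1 and 2 and 2.35 and 2.16 CPM in Low libraries 1 and 2, from 89, 62, 32 and 59 fragments. Both High values lay above both Low values, but High library 2 differed little from the Low libraries. The log2 fold change was 0.77 ± 0.60 (SE, adjusted p = 0.544). With each High library set against the Low pair it was 1.20 (adjusted p = 0.0827) for library 1 and 0.17 (0.887) for library 2.

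The other hormone receptors were at the limit of detection. Pgr (ENSMUSG00000031870.16, chromosome 9, 8899833 to 8968611, plus strand) had 0 and 1 fragments in the High libraries and 0 and 5 in the Low libraries. The ratio of Low to High was 5.09 with a 95% counting interval of 0.57 to 241, so no difference was detectable at this depth. Prlr (ENSMUSG00000005268.20, chromosome 15, 10177238 to 10349180, plus strand) had 0 fragments in either High library, against 3 and 12 in the Low libraries. With a floor of 3 fragments over the pooled group, this is at least 5.09-fold lower in the libraries labelled High. For each library alone, the floor gave 2.09-fold (High library 1) and 3-fold (High library 2), and Low library 1 itself lay at 3 fragments. No test was made, since neither receptor passed the filter. A count of 3 fragments corresponds to 0.182 and 0.123 CPM in High libraries 1 and 2 and to 0.216 and 0.107 CPM in Low libraries 1 and 2. These intervals cover counting error only, and the floors take the fragments of the Low libraries as exact.

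Kit (ENSMUSG00000005672.12, chromosome 5, 75574916 to 75656722, plus strand), the receptor of stem cell factor, had 0 and 3 fragments in High libraries 1 and 2, against 30 and 81 in Low libraries 1 and 2. Its levels were 0 and 0.122 CPM in the High libraries and 2.204 and 2.963 CPM in the Low libraries. Both High libraries lay below both Low libraries, with no overlap. The ratio of Low to High was 37.7 (95% counting interval 12.6 to 185), and the adjusted p was 0.0579. Kit passed the filter only through the Low libraries. It was called lower by DESeq2 (adjusted p = 0.00334), without the filter on low counts (0.0073) and with the library number as a block (0.0236), but not by limma-voom (0.0683) or with the numbers of the block crossed (0.134). Both blocks pair the libraries arbitrarily. Set against the Low pair, High library 1 was at least 15.5-fold lower (floor of 3 fragments), and High library 2 gave a ratio of Low to High of 22.2 (7.4 to 109). Of the 12 alternatives that kept Kit, 5 called it lower (adjusted p from 1.26e-05 to 0.832).

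Stat5a (ENSMUSG00000004043.14, chromosome 11, 100859351 to 100885169, plus strand), which carries the prolactin signal, had 26.5 and 17.8 CPM in High libraries 1 and 2, against 10.1 and 10.2 CPM in Low libraries 1 and 2. The groups did not overlap, and the Low duplicates were almost equal. The means were 22.1 ± 6.13 CPM in the libraries labelled High and 10.2 ± 0.127 CPM in those labelled Low (SD, n = 2 each), 2.18-fold apart (log2 fold change 1.12 ± 0.33, SE, adjusted p = 0.134). DESeq2 called the difference (adjusted p = 0.0487). Set against the Low pair, High library 1 was called higher (log2 fold change 1.37, adjusted p = 6.00e-04) and library 2 was not (0.81, 0.0936). Stat5b, a near-identical copy 8.6 kb away, had 37.3 and 51.9 CPM in the High libraries and 43.5 and 33.5 CPM in the Low libraries. The split of fragments between these copies is uncertain, and the end of Stat5a overlaps Stat3 on the other strand.

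**Figure D2:**
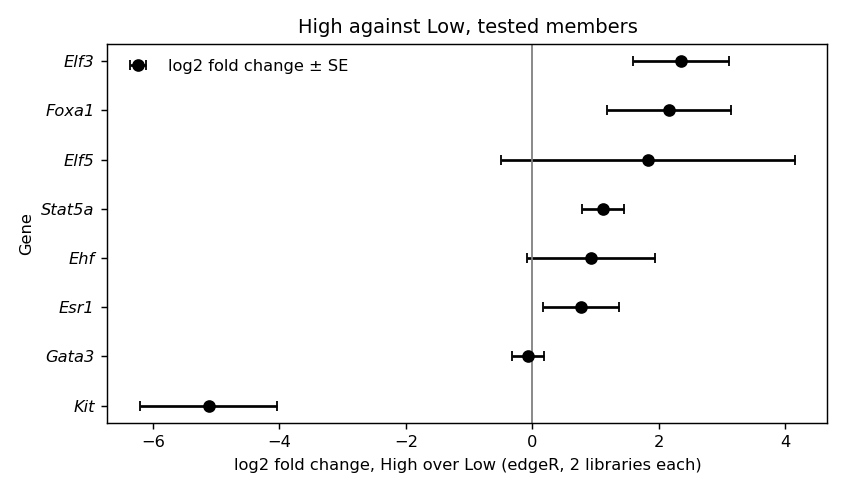
Log2 fold change of the libraries labelled High over those labelled Low for the 8 genes tested, with its SE as a horizontal bar (edgeR, 2 libraries each). Kit lies at the far left and Elf3 at the far right, and the SE of Elf5 (2.33) is the widest of the 8.

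Gata3 (ENSMUSG00000015619.10, chromosome 2, 9857078 to 9890034, minus strand) was the most abundant of the 10 genes per kilobase of transcript and the most even. It stood at 39.0 and 33.2 CPM in High libraries 1 and 2 and at 42.1 and 33.6 CPM in Low libraries 1 and 2. The groups overlapped, and the log2 fold change of -0.07 ± 0.26 (SE, adjusted p = 0.921) is smaller than its error. Its locus overlaps 2 further genes of the table, 4930412O13Rik and 9230102O04Rik, and the strand setting of the counting is not given in the sources used here.

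Foxa1 (ENSMUSG00000035451.7, chromosome 12, 57540628 to 57546916, minus strand), which opens chromatin for the oestrogen receptor, was high in a single library. It had 134 fragments (5.46 CPM) in High library 2 and 16 (0.935 CPM) in High library 1, against 14 and 12 fragments (1.03 and 0.439 CPM) in Low libraries 1 and 2. High library 1 lay between the Low libraries, so the groups overlapped (log2 fold change 2.17 ± 0.98, SE, adjusted p = 0.307). Elf3 (ENSMUSG00000003051.13, chromosome 1, 135253575 to 135258568, minus strand) was also highest in High library 2, with 13.5 CPM in High library 2 and 2.98 CPM in High library 1, against 1.62 and 1.61 CPM in the Low libraries. An antisense gene at its locus, Gm26642, was not used here. Both High values lay above both Low values (5.10-fold, log2 fold change 2.35 ± 0.76, SE, adjusted p = 0.176, and 0.0479 with DESeq2).

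The ETS factors Elf5 and Ehf were high in the other library labelled High. Elf5 (ENSMUSG00000027186.14, chromosome 2, 103411688 to 103450989, plus strand), a factor of alveolar fate, had 187 fragments (10.9 CPM) in High library 1 and 0 in High library 2, against 20 and 43 (1.47 and 1.57 CPM) in the Low libraries. The Low duplicates lay between the High libraries. Ehf (ENSMUSG00000012350.15, chromosome 2, 103263433 to 103303278, minus strand) had 45.6 CPM in High library 1 and 6.43 CPM in High library 2, against 11.5 and 15.7 CPM in the Low libraries. Again both Low values fell between the High values. The log2 fold changes of the groups, 1.83 ± 2.33 for Elf5 and 0.93 ± 1.01 for Ehf (SE, adjusted p = 0.750 and 0.699), average over opposite deviations. The sign for Elf5 held in 7 of 12 alternatives. It turned with limma-voom (-2.197), with limma on log2(FPKM + 0.1) (-0.23), with the library number as a block (-0.40) and with the block crossed (-0.205). It also turned without High library 1 (-8.06, a value that depends on the prior count).

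Without High library 1 or High library 2, each fit compares a single library labelled High with the pair labelled Low and assumes that the lone library varies like them. In High library 2, Foxa1 (log2 fold change 2.995, adjusted p = 7.36e-06) and Elf3 (3.06, 2.02e-11) were called higher. Kit, Ehf (-1.08, adjusted p = 0.0311) and Elf5 (at least 12.6-fold lower, adjusted p = 5.42e-04, floor of 3 fragments) were called lower. Kit and Elf5 passed the filter there only through the Low libraries. These 2 higher and 3 lower calls stand beside 8.76% and 7.53% of all genes in that fit (16.3% in all). In High library 1, Elf5 (2.82, adjusted p = 2.79e-08), Ehf (1.73, 1.03e-06) and Stat5a were called higher and Kit lower, 3 and 1 calls beside 10.6% and 8.05% of all genes (18.6% in all). Kit, with 0 fragments in High library 1, passed the filter in this fit too only through the Low libraries. Both fits share the Low libraries, so the calls of the fits are not independent of each other.

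**Figure D3:**
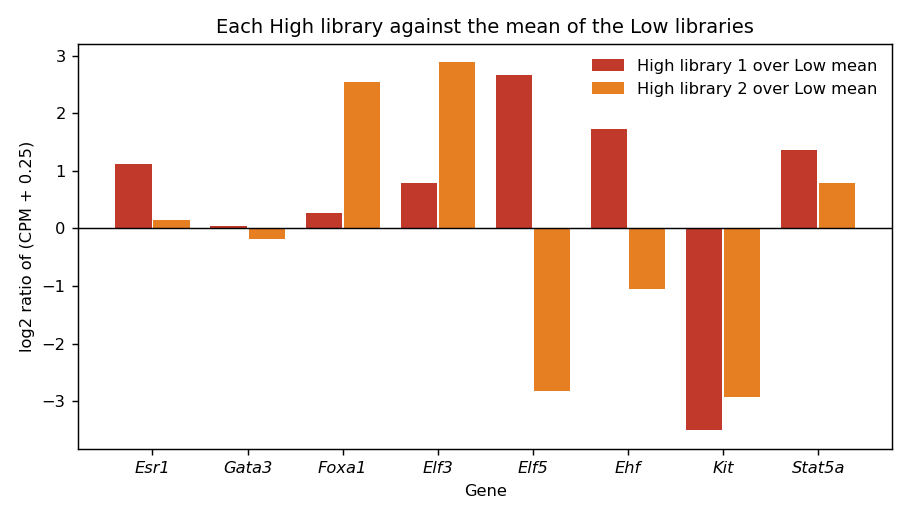
Log2 ratio of CPM + 0.25 for each library labelled High over the mean of the Low libraries, for the 8 genes tested. Elf5 stands at 2.66 in High library 1 and -2.83 in High library 2, Foxa1 at 0.27 and 2.54, and Kit at -3.50 and -2.93.

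The libraries labelled High were then compared with each other in a fit with 3 groups, where the spread comes from the Low duplicates alone. This fit has 1 residual degree of freedom and assumes that a single library labelled High varies like the pair labelled Low, which may be technical repeats. High library 2 held more Foxa1 and Elf3 and less Elf5 and Ehf than High library 1, while 4 of the 8 genes did not pass. Over all genes, 4.46% were called higher and 6.47% lower in High library 2, 10.9% in all. The log2 fold change of High library 2 over High library 1 was 2.54 ± 0.78 for Foxa1 (SE, adjusted p = 0.0140), 2.18 ± 0.53 for Elf3 (9.89e-04) and -2.82 ± 0.42 for Ehf (1.11e-09). Elf5 was at least 89.4-fold lower in High library 2 (adjusted p = 7.33e-15, floor of 3 fragments). With DESeq2 the call of Foxa1 was lost (adjusted p = 0.212). Stat5a (-0.57 ± 0.40, adjusted p = 0.455), Esr1 (-1.04 ± 0.62, 0.346), Gata3 (-0.23 ± 0.36, 0.802) and Kit (adjusted p = 0.461, from 3 and 0 fragments) did not pass. The same 4 genes were at least 4-fold apart between the High libraries on CPM + 0.25, against 4.95% of all genes.

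Elf5 and Ehf are neighbours on chromosome 2, transcribed away from each other from starts 108.4 kb apart. The other tested genes within 300 kb of Elf5 were looked at after the values were seen, and none of the 3 was called between the High libraries. Cat, which encodes catalase and lies next to Elf5, had 70.6 CPM in High library 2 and 101 CPM in High library 1, with a log2 difference of -0.52 ± 0.33 (SE, adjusted p = 0.398). Abtb2 and Nat10 differed by 0.54 ± 0.39 and -0.05 ± 0.33 between those libraries (SE, adjusted p = 0.489 and 0.964). Both lay lower in the High libraries than in the Low libraries, without being called. Abtb2 had 10.6 and 15.4 CPM, against 42.6 and 31.1 CPM (edgeR adjusted p = 0.0599). Nat10 had 70.6 and 68.1 CPM, against 107 and 107 CPM (0.177). The lncRNA A930006I01Rik between Ehf and Elf5 had 0 fragments in every library.

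**Figure D4:**
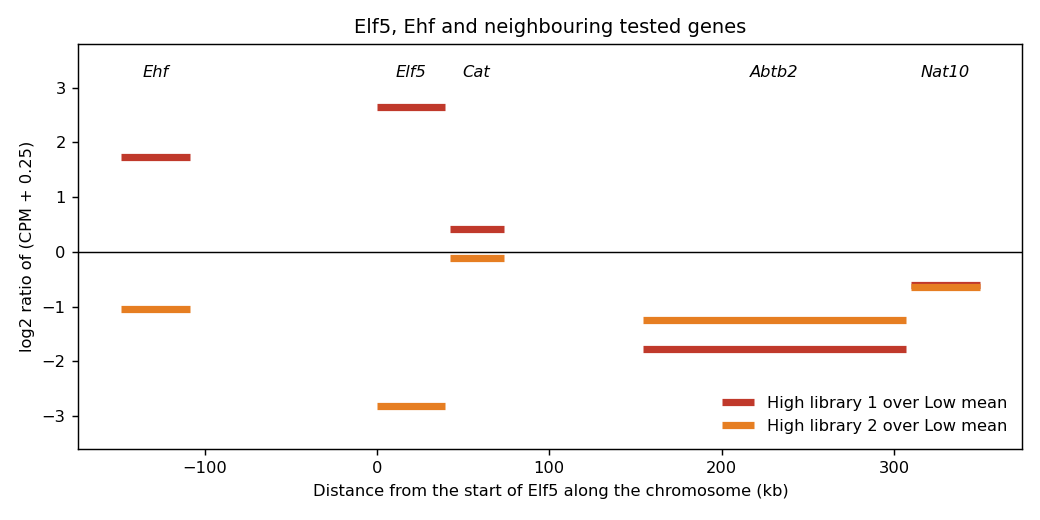
Log2 ratio of CPM + 0.25 for each library labelled High over the mean of the Low libraries, drawn over the extent of each tested gene as distance in kb from the start of Elf5. Ehf (1.73 and -1.05) and Elf5 (2.66 and -2.83) part in opposite directions in High libraries 1 and 2, while Cat stays at 0.41 and -0.11. Abtb2 (-1.77 and -1.24) and Nat10 (-0.60 and -0.65) lie below 0 in both.

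The promoters of the transcription factors that differed between the High libraries are shown so that their sequences can be read beside these levels: RefSeq entries, GRCm38.p6, for 9 of the 10 genes, with none used for Ehf. Each line gives the 250 bases before a start, 5′ to 3′ on the strand of the gene. Capitals mark the ETS core GGAAG and the FOXA motif TGTTTAC on either strand. Foxa1 lies at chr12:57546112-57546361 (minus strand), Elf3 at chr1:135258473-135258722 (minus), and Elf5 has RefSeq starts after chr2:103411848-103412097 and chr2:103423818-103424067 (both plus). The bases that follow the first of these Elf5 windows were not found as an unbroken run in a GENCODE M21 transcript of the gene, while those after the second were.
Foxa1: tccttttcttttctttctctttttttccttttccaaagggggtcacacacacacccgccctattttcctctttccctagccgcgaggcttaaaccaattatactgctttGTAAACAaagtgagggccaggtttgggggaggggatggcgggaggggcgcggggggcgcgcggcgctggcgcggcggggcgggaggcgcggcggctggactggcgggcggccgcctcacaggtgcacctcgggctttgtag
Elf3: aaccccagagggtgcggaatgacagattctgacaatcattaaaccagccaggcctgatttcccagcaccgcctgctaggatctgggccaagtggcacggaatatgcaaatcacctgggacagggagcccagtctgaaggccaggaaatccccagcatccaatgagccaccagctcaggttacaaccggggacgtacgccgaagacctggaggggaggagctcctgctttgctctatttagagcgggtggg
Elf5, first start: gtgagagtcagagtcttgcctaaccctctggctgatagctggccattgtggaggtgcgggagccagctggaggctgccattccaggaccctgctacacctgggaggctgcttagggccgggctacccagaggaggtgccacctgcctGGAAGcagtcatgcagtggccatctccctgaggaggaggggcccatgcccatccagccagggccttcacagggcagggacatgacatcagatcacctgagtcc
Elf5, second start: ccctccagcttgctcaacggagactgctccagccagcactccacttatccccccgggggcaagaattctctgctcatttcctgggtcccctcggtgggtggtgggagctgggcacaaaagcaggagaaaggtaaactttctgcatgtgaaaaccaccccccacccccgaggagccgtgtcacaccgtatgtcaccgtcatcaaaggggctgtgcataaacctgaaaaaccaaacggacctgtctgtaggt
The window of Foxa1 held 1 match to the FOXA motif, found in 3.17% of 32851 promoter windows of this length, and none to the ETS core. The window of Elf3 and the second window of Elf5 held neither, and the first window of Elf5 held 1 ETS core, found in 64.1% of all windows. None of these windows matched the GATA motifs AGATAA or TGATAA (16.6% of windows), the STAT motif TTCNNNGAA (7.02%) or the oestrogen response element in its palindromic form (0.0639%), each searched on both strands. No match overlapped another motif, and a match describes letters only.

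On the FPKM scale, which is per kilobase of transcript and allows genes to be compared, the order of mean levels in the libraries labelled High was Gata3 (11.8 FPKM), Ehf and Stat5a (6.12 each), Elf3 (4.57), Elf5 (2.67), Foxa1 (1.06), Esr1 (0.925), Kit (0.0121), Pgr (0.0030) and Prlr, which was listed at 0. From Ehf to Esr1 and from Kit to Prlr, neighbours in this order overlapped between libraries, since Ehf ran from 1.52 to 10.7 FPKM and Elf5 from 0 to 5.35 FPKM. In the Low libraries the order was Gata3 (12.5 FPKM), Ehf (3.23), Stat5a (2.78), Elf3 (0.906), Elf5 (0.769), Esr1 (0.544), Kit (0.516), Foxa1 (0.244), Prlr (0.0324) and Pgr (0.0136). There, Ehf and Stat5a, Esr1 and Kit, and Prlr and Pgr overlapped between libraries, and the other neighbours did not.

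Genes whose level across the 4 libraries was most like that of a member were sought for the 5 members whose log2 CPM spanned at least 2, by Euclidean distance between centred log2 CPM. With 4 points the measure is coarse, and it is given as a description. The nearest were Sema4a (distance 0.213) and Pvrl4 (0.326) for Foxa1, and Nbeal2 (0.252) and Crabp2 (0.285) for Elf3. For Ehf they were Kcnj2 (0.107) and Trpv6 (0.151), for Elf5 Pgm5 (0.657) and Igf2 (0.70), and for Kit Rsph9 (0.182) and Lrrk2 (0.314).

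Genes that act with the receptors were described from 6 lists. Of 15 tested nuclear receptors and coregulators, 0 were called higher and 0 lower with edgeR, against 1.14% and 1.33% of all genes. At an unadjusted p under 0.05, 3 of the 15 passed, against 18.1% of all genes. The median log2 fold change was 0.12. The second oestrogen receptor, Esr2, had 1.93 and 1.22 CPM in the High libraries and 0.514 and 0.293 CPM in the Low libraries (adjusted p = 0.259). The coactivator Ncoa1 had 23.4 and 31.1 CPM, against 8.67 and 15.5 CPM (0.160).

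Of 10 tested oestrogen and progesterone target and paracrine genes, 2 rose and 0 fell, against 1.14% and 1.33% of all genes. Their median log2 fold change was 1.22. Wnt4, a progesterone-induced ligand, averaged 83.2 ± 15.3 CPM in the libraries labelled High and 13.01 ± 0.399 CPM in those labelled Low (SD, n = 2 each, adjusted p = 0.00412). The oestrogen-induced EGFR ligand Areg averaged 31.5 ± 9.64 and 8.96 ± 0.312 CPM in the same groups (adjusted p = 0.0351). Tnfsf11, which encodes RANKL, another progesterone effector, had 5 and 1 fragments in the High libraries against 31 and 61 in the Low libraries and was not called (adjusted p = 0.102). It passed the filter on low counts only through the Low libraries. Fgfr2 had 48.5 and 5.98 CPM in the High libraries and 0.441 and 0.951 CPM in the Low libraries (adjusted p = 0.191), and Igfbp5 266 and 0.0407 CPM, against 2.64 and 4.13 CPM (0.521).

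Of 13 tested genes of prolactin receptor, JAK and STAT signalling, 1 rose and 0 fell, against 1.14% and 1.33% of all genes. Their median log2 fold change was -0.07. The riser was Jak2, the kinase bound to the prolactin receptor, at 132 and 132 CPM in the High libraries and 45.0 and 58.4 CPM in the Low libraries (2.55-fold, adjusted p = 0.0308). The growth hormone receptor Ghr had 42.1 and 47.5 CPM, against 73.2 and 91.0 CPM (adjusted p = 0.111).

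Of 20 tested other luminal and epithelial transcription factors, 2 rose and 1 fell, against 1.14% and 1.33% of all genes. Their median log2 fold change was 0.04. Klf5, a factor of epithelial growth, averaged 49.3 ± 8.34 CPM in the libraries labelled High and 17.1 ± 0.60 CPM in those labelled Low (SD, n = 2 each, adjusted p = 0.0306). Id2, an inhibitor of helix-loop-helix factors, had 60.0 and 74.6 CPM in the High libraries and 19.0 and 17.9 CPM in the Low libraries (3.66-fold, adjusted p = 0.0126). The Notch target Hey1 fell to 1.17 and 0.896 CPM in the High libraries, against 28.4 and 26.7 CPM in the Low libraries (adjusted p = 0.0021). Grhl3 had 4.44 and 7.69 CPM in the High libraries and 1.03 and 0.768 CPM in the Low libraries (adjusted p = 0.0621).

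Of 14 tested other ETS factors, 0 rose and 1 fell, against 1.14% and 1.33% of all genes. Their median log2 fold change was -0.31. Ets1 averaged 64.9 ± 4.21 CPM in the libraries labelled High and 180 ± 10.9 CPM in those labelled Low (SD, n = 2 each, adjusted p = 0.0189). Etv1 had 0.526 and 0.651 CPM in the High libraries and 3.89 and 3.15 CPM in the Low libraries (adjusted p = 0.0967), and Ets2 262 and 203 CPM, against 146 and 142 CPM (0.182). Of 11 tested genes around KIT, 0 rose and 0 fell with edgeR, against the same 1.14% and 1.33% of all genes. At an unadjusted p under 0.05, 1 of the 11 passed, against 18.1% of all genes, and the median was 0.21. The related receptors Csf1r and Pdgfrb had 20.8 and 27.4 CPM, against 8.67 and 8.67 CPM (adjusted p = 0.0579), and 424 and 101 CPM, against 724 and 696 CPM (0.430). Pik3r1 had 147 and 38.02 CPM, against 41.1 and 56.9 CPM (0.585). In the fits without Low library 1 or Low library 2 no gene passed in edgeR (970 and 800 did at an unadjusted p under 0.05), so no call between the groups named here held there.

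The luminal label was checked against cell type markers. Of 12 luminal markers 10 passed the filter, and the list summed to 1934 and 4691 CPM in High libraries 1 and 2, against 2377 and 1892 CPM in the Low libraries. Keratin genes Krt8 and Krt18 were abundant in every library but did not lean to either group. Krt8 had 224 and 879 CPM in High libraries 1 and 2, against 647 and 443 CPM in the Low libraries (log2 fold change 0.02). Krt18 had 184 and 576 CPM, against 534 and 359 CPM (-0.23). Prom1 and Muc1 lay at 0.514 CPM or less in each library, with both High libraries below both Low libraries. None of the 10 was called between the groups (0 higher and 0 lower with edgeR, against 1.14% and 1.33% of all genes). At an unadjusted p under 0.05, 4 of the 10 passed, against 18.1% of all genes, and the median was 1.11. Cldn3 had 64.7 and 184 CPM in the High libraries, against 50.2 and 34.2 CPM (adjusted p = 0.251), Krt7 498 and 1675 CPM, against 505 and 352 CPM (0.384), and Cdh1 263 and 386 CPM, against 130 and 146 CPM (0.0576). Between the High libraries, 8 of the 10 were called higher and 0 lower in High library 2, against 4.46% and 6.47% of all genes. This is the library with more Foxa1 and Elf3.

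The 12 basal markers summed to 2219 and 3526 CPM in High libraries 1 and 2, against 4541 and 3593 CPM in the Low libraries. Of 11 tested, 2 were called higher (Cdh3 and Itga6) and 2 lower (Acta2 and Vim), against 1.14% and 1.33% of all genes. Acta2, smooth muscle actin, had 22.7 and 8.63 CPM in the High libraries, against 1320 and 1153 CPM (adjusted p = 0.00976). Vim had 760 and 591 CPM, against 2167 and 1725 CPM (adjusted p = 0.0275). Trp63, the basal master regulator, had 5.90 and 22.5 CPM, against 2.13 and 1.28 CPM (adjusted p = 0.0975). Krt14, the most abundant basal marker in the High libraries, had 1271 and 2647 CPM there, against 973 and 614 CPM in the Low libraries (adjusted p = 0.192). The basal markers thus did not move in a single direction. The 8 fibroblast markers summed to 1211 and 170 CPM in High libraries 1 and 2, against 5672 and 5207 CPM in the Low libraries. Of 7 fibroblast markers tested, 0 were higher and 1 lower, against 1.14% and 1.33% of all genes. The lower gene was Fap, at 0.409 and 0.0814 CPM in the High libraries against 17.9 and 25.7 CPM in the Low libraries. With 7 and 2 fragments in the High libraries, Fap passed the filter only through the Low libraries. Col1a1 (adjusted p = 0.0717) and Col3a1 (0.413) did not pass, and 4 of the 6 that did not pass had fold changes below 0. The others were Dcn, at 195 and 19.6 CPM in the High libraries against 4.19 and 5.45 CPM in the Low libraries (adjusted p = 0.251), and Pdgfra (log2 fold change 0.56, adjusted p = 0.848). Between the High libraries, 6 of the 7 were called lower and 0 higher in High library 2, against 6.47% and 4.46% of all genes. This is the library without Elf5. The part of these marker changes in the levels of Foxa1, Elf3, Elf5 and Ehf was not tested.

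Markers of other cell types were near 0. The 4 endothelial markers summed to at most 0.732 CPM and the 4 adipocyte markers to at most 0.584 CPM in any library. The immune list summed to 22.1 and 28.1 CPM in the High libraries and 9.55 and 9.84 CPM in the Low libraries, nearly all of it Csf1r. Cd3e, Ms4a1 and Emr1 were at 0 in every library, Ptprc at 0.293 CPM or less, and Cd68 at 1.34 CPM or less (adjusted p = 0.959).

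**Figure D5:**
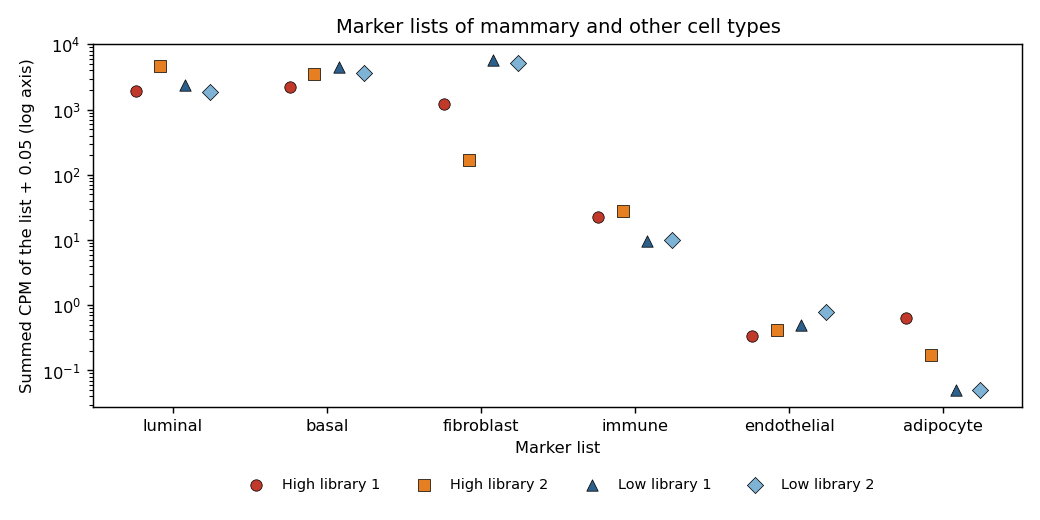
Summed CPM (plus 0.05, log axis) of 6 lists of cell type markers in each library, with the libraries labelled High at the left of each list. The fibroblast sum is 170 CPM in High library 2 and 5672 and 5207 CPM in the Low libraries, and the luminal sum is highest in High library 2 (4691 CPM).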

How the data were processed

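RNA was measured in 4 libraries, each from 500 ng of DNase-treated total RNA by a strand-specific kit, as the labels' protocols state. Cutadapt 1.5, TopHat2 2.0.13, Cuffdiff 2.2.1 and mouse build mm10 are named in the submitters' processing notes. The sources used here do not name an annotation or a strand setting. Per the file headers, the deposited table holds an estimated count of fragments for each gene in each library. Of these values 99.18% were whole within 1e-06 (for the 10 genes, all), and all were rounded. The FPKM values of the same deposited table scale these to transcript length and depth. All per-sample columns used had a sample.

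Groups were compared by the two-sided quasi-likelihood test of edgeR 4.0.16 (R 4.3.3, limma 3.58.1) after TMM scaling, with robust fitting, a smallest count of 10 and Benjamini-Hochberg adjustment at 0.05 over all 12987 genes tested. It had 2 residual degrees of freedom and a coefficient of variation of 32.2%. CPM are TMM-normalised. A fit with 3 groups compared the High libraries. Alternatives were DESeq2 1.42.0, limma-voom, RLE scaling, other filters, limma on log2(FPKM + 1) and log2(FPKM + 0.1), a block and each library left out. Counting intervals (95%) of ratios are exact binomial. The duplicates labelled Low differed by more than sampling noise (chi-square per degree of freedom 33.4), so they were kept apart. Nothing states that they were separate cultures, so the spread behind each p-value may be technical.

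The genes and lists were chosen with earlier results of these data known. The rule for named genes took all 10 genes and, from each list, every gene called between High and Low and the 3 with the largest absolute log2 fold change among those tested. Some genes this rule names are not reported here. Positions come from GENCODE M21 (mm10) and promoters from RefSeq (GRCm38.p6).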

Additional observations from a re-analysis of the deposited data

How the results depend on the processing

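Counts over all genes depended on the processing. Genes higher in the libraries labelled High numbered 148, and 611 with DESeq2, 72 with limma-voom, 437 without a filter on low counts, 82 with limma on log2(FPKM + 1) and 0 to 1406 with a library left out. Genes lower numbered 173, and 525 with DESeq2, 377 without a filter and 0 to 1069 with a library left out. Without Low library 1 or Low library 2, edgeR called 0 genes (970 and 800 at an unadjusted p under 0.05). Of the 10 genes, 0 were called in either direction. DESeq2 called 2 higher and 1 lower, the fit without a filter 1 lower, and the fits without a library 0 to 3 higher and 0 to 3 lower. The median log2 fold change of the 8 genes (1.03) was 0.40 with limma-voom, 0.44 and 0.47 with limma on log2(FPKM + 1) and log2(FPKM + 0.1), and -0.0058 to 1.15 with a library left out. With a library left out, the log2 fold change ran from -8.06 to 2.82 for Elf5, whose lowest value depends on the prior count, and from -1.08 to 1.73 for Ehf. The extremes came from leaving out High library 1 and High library 2.

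With the library number as a replicate block, 223 genes were higher and 246 lower, and 1 of the 10 genes (Kit) was called lower. The numbers only name the libraries. Deviations of same-numbered libraries correlated at -0.139 and those of crossed numbers at 0.139. These are mirror values and cannot show whether the samples were paired. With the numbers crossed, an alternative chosen after seeing the data, 38 genes were higher and 56 lower. Between the High libraries, DESeq2 called 360 genes higher, against 579, and 1 of the 10 genes higher, against 2. With a smallest count of 50, Foxa1 and Elf5 were filtered out, which left 1 gene called higher and 1 lower. Leaving out a Low library there leaves no residual degrees of freedom and was not run. Of the single-gene values under these alternatives, 87 of 101 between the groups and 36 of 37 between the High libraries stayed on their side of the threshold. Between the groups, staying means only that a gene was still not called, since the main fit called none of these genes. Values from the fits without a Low library had to stay, since edgeR called no gene there. The total is thus no measure of stability. Depth limits Pgr, Prlr and Kit most.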

Other observations

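Further genes of the lists also parted the libraries labelled High, and these were picked after their values were seen. Igfbp5, an insulin-like growth factor binding protein, had 1 fragment in High library 2 and 4550 in High library 1, against 36 and 113 in Low libraries 1 and 2. Erg, an ETS factor of endothelial cells, had 0 fragments in High library 2 and 52 in High library 1, against 0 in either Low library. Pdgfra, a receptor gene 376.7 kb from Kit, had 26.6 CPM in High library 2 and 234 CPM in High library 1, against 79.3 and 97.3 CPM in the Low libraries. All of these were lower in High library 2. Other list genes parted the other way, such as Etv4, at 101 CPM in High library 2 and 25.2 CPM in High library 1. It had 96.2 and 80.7 CPM in the Low libraries.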
